A study of Homo sapiens with 12 samples.

Results

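The 43 genes described here encode proteins that take a cell from G2 through mitosis: cyclins, kinases, checkpoint and kinetochore proteins, spindle motors and proteins of cytokinesis. They were chosen by symbol, with earlier results of these data known. Each of the 43 symbols was found in the gene column of all 12 count tables and all 12 FPKM tables, out of 27788 symbols in the counts. FPKM is a level scaled by gene length and depth. CPM, used for comparisons of a gene with itself, is a count relative to the library's total, scaled within a line by the TMM method of edgeR. All 43 passed the filter on low counts in both lines, where 14068 genes were tested in HCT116 and 13741 in U-87 MG, and the lowest count of any of the 43 in any library was 279.

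Entry into mitosis is driven by CDK1 bound to cyclin A or B, which the CDC25 phosphatases switch on and the Aurora and Polo-like kinases act beside. The spindle assembly checkpoint then holds the anaphase-promoting complex (APC/C) off until every kinetochore is attached to microtubules, after which CDC20 and the APC/C release sister chromatids and the central spindle directs cytokinesis. Most of these genes are transcribed mainly in G2 and mitosis, under MuvB complexes that bind the CHR element of their promoters, NF-Y at CCAAT boxes and FOXM1, so their summed RNA is often used as a readout of dividing cells.

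RNA was sequenced from HCT116, a human colorectal carcinoma line, and U-87 MG, a human glioblastoma line, in 3 libraries each of GSTO1 knockout (KO) and wild-type cells per line. GSTO1 encodes an omega-class glutathione transferase. Per the labels' protocols, both lines were given Cas9 by a lentivirus under the hEF1α promoter with blasticidin selection, then a tracrRNA with a crRNA against exon 2 of GSTO1 or a crRNA with no target, and individual colonies were picked and screened for loss of GSTO1. The sources used here do not say whether the wild-type libraries are of cells given the crRNA with no target, or how many colonies the KO libraries represent, so a change of 1 colony and a change caused by loss of GSTO1 cannot be told apart. Reads of 50 bases were taken from a single end in HCT116 libraries and from both ends in those of U-87 MG.

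Library totals ran from 17814142 to 28097179 counts. GSTO1 itself stood at 24.9% of the wild-type CPM in the HCT116 KO libraries and at 18.4% in those of U-87 MG. Of 10 colon epithelial markers 6 were over 1 CPM in HCT116, among them EPCAM, KRT8, KRT18 and CDX2, while CDX1, VIL1, CDH17 and LGALS4 had group means of at most 0.143 CPM. Of 8 mesenchymal markers 7 were over 1 CPM in U-87 MG, among them VIM, FN1 and COL1A1, while THY1 was at most 0.0552 CPM. Of 8 glia and glioma genes only 2 were over 1 CPM there, CHI3L1 and the glial-progenitor gene NES. NES also stood at 30.5 CPM in HCT116 KO and 41.8 CPM in HCT116 wild type. GFAP and S100B, the defining astrocyte genes, had group means of at most 0.0833 CPM in U-87 MG. Those of OLIG2, SOX2, PTPRZ1 and AQP4 were at most 0.866 CPM there. Of the 8 leukocyte genes CD3E was at 0 in every group, yet the list summed to 672 to 699 CPM in U-87 MG KO and 486 to 567 CPM in wild type, nearly all of it from CD68 and HLA-DRA. The mitochondrial ribosomal RNA gene RNR2 took 1.36 to 1.54% of counts in HCT116 KO against 0.981 to 1.06% in wild type. Its share in U-87 MG was 0.419 to 0.435% in KO and 0.254 to 0.322% in wild type. The part of either in the results was not tested. Libraries numbered 3 stood apart from the other two of their group in HCT116 KO, HCT116 wild type and U-87 MG wild type, where chi-square divided by its degrees of freedom was 3.58 to 9.77 against 1.49 to 2.42 between the other two. No label states that the 3 libraries of each group were separate cultures. A p-value therefore covers the spread of these libraries alone, and that spread may be technical.

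In both lines the mitotic genes were lower in the KO. Here a gene "fell" where edgeR's quasi-likelihood test gave an adjusted p under 0.05 over all genes tested, and was "called lower" where, in addition, the fold exceeded 1.5 and the mean FPKM exceeded 0.5. In HCT116 all 43 fell (28.1% of all genes tested did), and 22 were called lower (51.2%, against 4.07% of all genes), while 0 rose (29.2% of all genes did) and 0 were called higher (7.82% of all genes). In U-87 MG 41 fell (30.2% of all genes tested did), and 13 were called lower (30.2% of the 43, against 8.15% of all genes), while 0 rose (29% of all genes did) and 0 were called higher (8.06% of all genes). No member was higher at an unadjusted p under 0.05 in either line, and DESeq2 also called 0 higher. CDC25B and KIF20A were the members that did not pass in U-87 MG. In bulk RNA, fewer cells in G2 and mitosis and less of each RNA per such cell cannot be told apart.

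Summed over the 43 genes, the HCT116 KO libraries held 6696, 6775 and 6449.9 CPM and the wild-type libraries 9790.2, 9816 and 9552 CPM. The groups did not overlap. The U-87 MG KO libraries held 5426, 5348 and 5351 CPM and the wild-type libraries 7332, 7284 and 7594 CPM. Again all KO libraries were below all wild-type libraries. The median log2 fold change of the 43 was -0.59 in HCT116 (1.50-fold lower, quartiles -0.70 and -0.50) and -0.43 in U-87 MG (1.35-fold lower, quartiles -0.67 and -0.33), while the median over all genes tested was 0.01 in each line. Every KO library was below every wild-type library for 43 of 43 genes in HCT116 (30.4% of all genes tested) and for 40 in U-87 MG (32.2% of all genes tested), where CDK1, MAD2L1 and KIF20A overlapped.

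**Figure D1:**
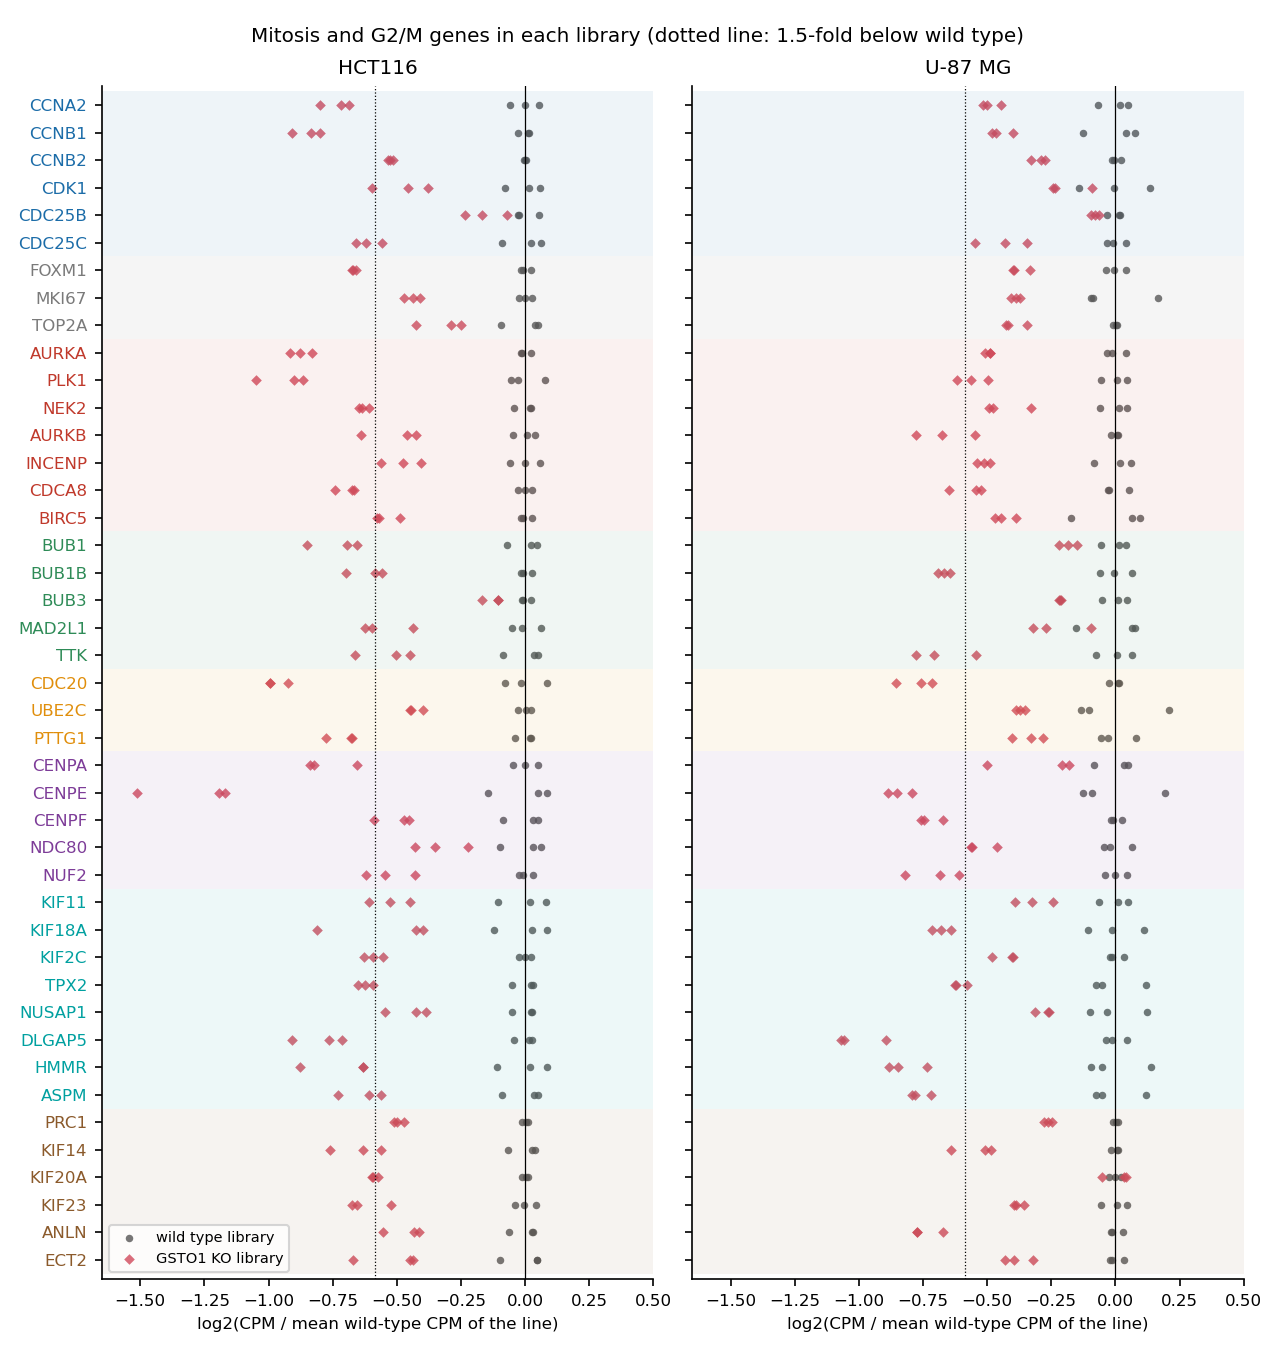
Each point is 1 library: the x axis is log2 of its CPM over the mean wild-type CPM of the line, circles are wild type and diamonds GSTO1 KO, and shaded bands group the 43 genes by role. In HCT116 all diamonds lie left of the wild-type circles for 43 genes, and in U-87 MG for 40.

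The count of 22 in HCT116 rested partly on genes near the 1.5-fold threshold. KIF2C (-0.59) and KIF20A (-0.59) were just inside it and MAD2L1 (-0.55) and BIRC5 (-0.54) just outside. In U-87 MG, AURKB (-0.67) and TPX2 (-0.61) were just inside and CDCA8 (-0.57) and PLK1 (-0.56) just outside. Leaving out single libraries gave 20 to 25 calls in HCT116 and 12 to 15 in U-87 MG. Without the libraries numbered 3, 20 and 12 genes were called lower, 43 and 41 fell, and the medians were -0.57 and -0.45. With limma on log2 FPKM, pseudocounts of 1 and 0.1 gave 24 and 28 calls in HCT116 and 12 and 12 in U-87 MG.

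The genes called lower in both lines were BUB1B, CDC20, CENPE, TPX2, DLGAP5, HMMR and ASPM. These 7 were 31.8% of the HCT116 list, while 30.2% of all 43 genes were called lower in U-87 MG. The same 7 were 53.8% of the U-87 MG list, while 51.2% of all 43 were called lower in HCT116. Among the 43, the overlap was thus close to that of lists drawn without regard to each other. Over the 12239 genes tested in both lines, 79 were called lower in both, 16.6% of the 477 of HCT116 and 8.59% of the 920 of U-87 MG. A total of 41 of the 43 genes fell in both lines, as did 14.3% of the genes tested in both. Called lower in at least 1 line were 28 of the 43, and 15 were called in neither: CCNB2, CDK1, CDC25B, MKI67, TOP2A, INCENP, BIRC5, BUB3, MAD2L1, UBE2C, NDC80, KIF11, NUSAP1, PRC1 and ECT2.

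Promoter sequence was examined as well. Genes of G2 and mitosis are known for CHR and CCAAT elements. An excess of these motifs is therefore a property of the list as chosen and not a result of the KO. RefSeq promoter windows on GRCh38.p14, from 250 bases before to 50 bases after the annotated start, were held for 36 of the 43 genes in 46 windows. BIRC5, AURKA, TTK, TPX2, UBE2C, BUB3 and FOXM1 had none. The core of the CHR element (TTTGAA, either strand) was found in 63.0% of the 46 windows and in 15.2% of all 35116 windows of the same length, and in at least 1 window of 26 of the 36 genes (72.2%, against 18.2% of 27305 genes). CCAAT, searched on both strands, was found in 76.1% of the windows against 34.6% of all windows, and in 30 of 36 genes (83.3% against 39.7%). A window with at least 2 CCAAT matches was held by 20 of the 36 (55.6% against 12.9%), and 22 had both motifs (61.1% against 8.37%). In the windows of the 36 genes, 2 pairs of a CHR core and a CCAAT match shared a base. A match is a string of letters, not a measured binding site.

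**Figure D2:**
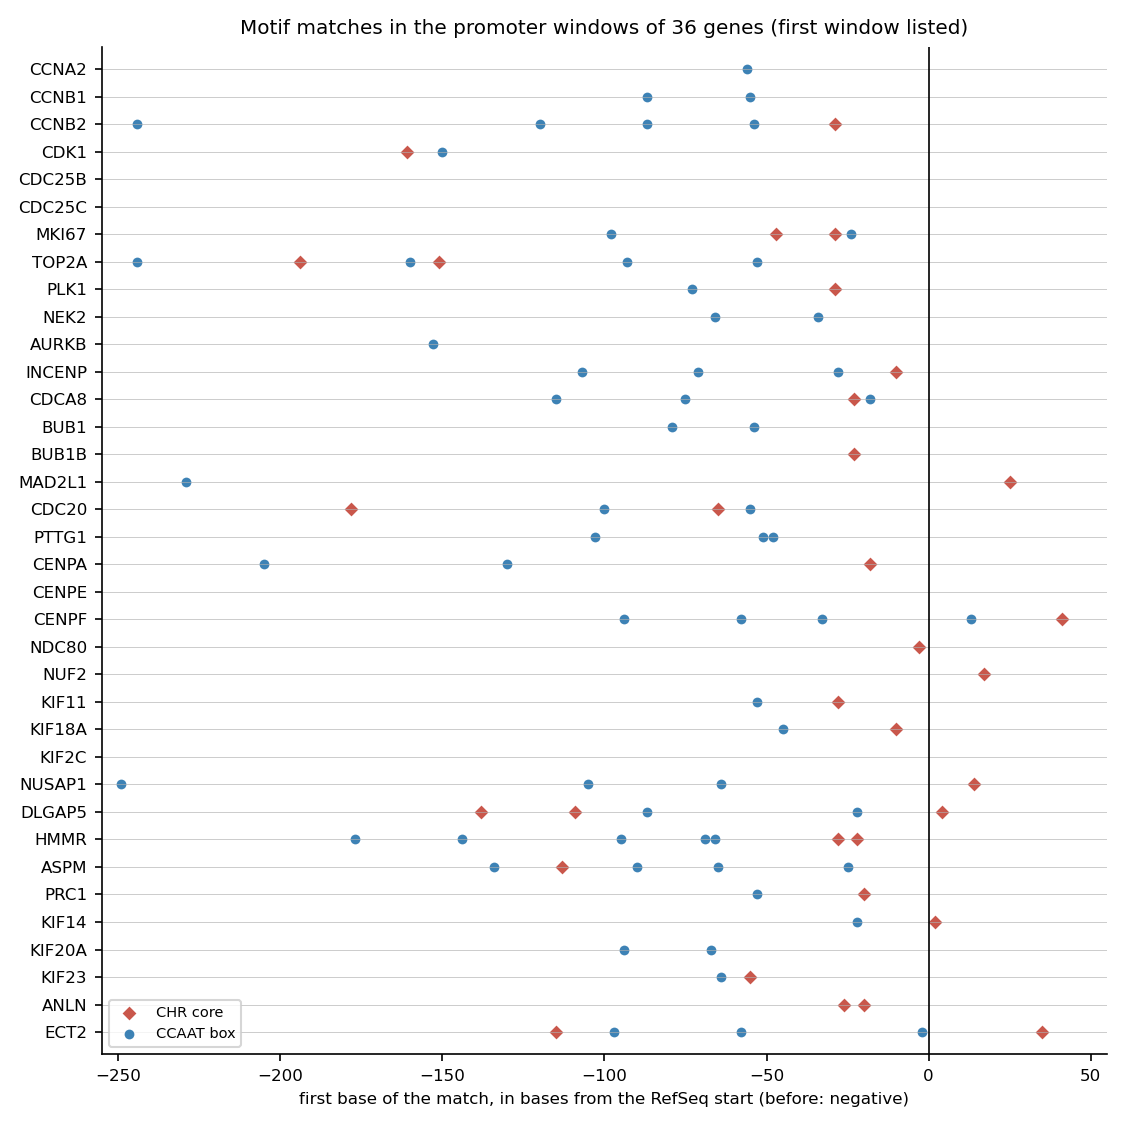
The x axis is the distance in bases of the first base of a match from the RefSeq start, for the first listed window of each of 36 genes; diamonds are the CHR core and circles CCAAT, on either strand. Of 40 CHR matches over all 46 windows 30 began no more than 75 bases before the start, and of 74 CCAAT matches 51 began 150 to 40 bases before it. Windows of the 6 genes with several can overlap, so a site there may be counted more than once.

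The stretches below show part of these windows for 5 genes. CENPE, DLGAP5 and CDC20 were among the called genes with the lowest mean change of both lines, and TOP2A was called in neither line. KIF20A was added after its values were seen because its change differed between the lines. Each stretch is up to 150 bases before the start that no GENCODE exon covers, in the gene's direction, from RefSeq on GRCh38.p14. The last base shown lies 103 bases before the RefSeq start for CENPE and 24 bases before it for DLGAP5. The DLGAP5 window also held CCAAT at -22 and a CHR core at 4, which are not shown. Capitals mark whole matches to TTTGAA or CCAAT on either strand (TTCAAA and ATTGG on the other strand). The positions are chr4:103198446-103198593, minus strand, for CENPE; chr14:55191609-55191758, minus strand, for DLGAP5; and chr1:43358831-43358980, plus strand, for CDC20. TOP2A lies at chr17:40417897-40418046, minus strand, and KIF20A at chr5:138178962-138179111, plus strand.
CENPE: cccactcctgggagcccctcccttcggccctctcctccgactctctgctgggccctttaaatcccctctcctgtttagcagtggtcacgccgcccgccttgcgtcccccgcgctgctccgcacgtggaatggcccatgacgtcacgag
DLGAP5: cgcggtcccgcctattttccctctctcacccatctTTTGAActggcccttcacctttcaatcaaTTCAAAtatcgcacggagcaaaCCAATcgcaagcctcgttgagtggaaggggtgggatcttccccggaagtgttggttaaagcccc
CDC20: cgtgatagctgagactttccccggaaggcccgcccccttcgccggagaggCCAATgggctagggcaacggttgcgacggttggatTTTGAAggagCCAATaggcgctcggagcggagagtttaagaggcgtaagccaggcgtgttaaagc
TOP2A: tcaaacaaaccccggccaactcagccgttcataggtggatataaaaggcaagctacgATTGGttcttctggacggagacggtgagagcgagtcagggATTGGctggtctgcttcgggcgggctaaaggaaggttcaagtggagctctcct
KIF20A: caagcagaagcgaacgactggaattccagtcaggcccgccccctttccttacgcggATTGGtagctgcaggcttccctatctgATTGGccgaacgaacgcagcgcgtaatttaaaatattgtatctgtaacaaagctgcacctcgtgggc
HMMR and CDC25B met the same rule and are not printed because annotated exons cover the stretch. The CENPE stretch held no match, and CENPE and KIF2C were the genes with neither motif in any window. CENPE had the lowest log2 fold change of the 43 in HCT116. Only the exact letters TTTGAA and CCAAT were searched, so a variant of either element would not be counted. The TOP2A stretch held CCAAT on the opposite strand at 2 places. Its CHR match at -194 lay farther upstream, and that at -151 is cut by the edge of the stretch and so not marked.

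The change of the 36 genes is given here by motif, as a description with no test. In HCT116 the median log2 fold change was -0.54 for the 26 genes with a CHR core and -0.67 for the 10 without. In U-87 MG the medians were -0.52 and -0.43. For the 30 genes with CCAAT and the 6 without, they were -0.60 and -0.56 in HCT116 and -0.41 and -0.68 in U-87 MG. For the 22 genes with both motifs and the other 14, they were -0.55 and -0.60 in HCT116 and -0.41 and -0.47 in U-87 MG. Over all tested genes with a window, the members included, those with a CHR core had medians of -0.02 in HCT116 and -0.04 in U-87 MG. Of these genes 6.17% and 9.38% were called lower, against 3.81% and 8.12% of those without. The members are part of these shares.

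Of the 6 genes of mitotic entry (3 cyclins, CDK1 and 2 CDC25 phosphatases), all fell in HCT116 and 3 were called lower, and 5 fell in U-87 MG with 0 called (median log2 fold change -0.57 and -0.37). CCNB1, cyclin B1, the main partner of CDK1 in mitosis, stood at 157, 153 and 145 CPM in the HCT116 KO libraries and at 275, 268 and 276 CPM in wild type. The KO values were 55.6% of wild type and did not overlap it (log2 fold change -0.85 ± 0.04 (SE), edgeR adjusted p = 2.14e-12). CCNA2, cyclin A2, which acts with CDK2 and CDK1 from S phase to early mitosis, measured 115, 117 and 108 CPM in KO and 189, 196 and 181 CPM in wild type. Its groups were apart as well (-0.74 ± 0.05, edgeR adjusted p = 8.42e-11), with the limit that EXOSC9 overlaps 9.24% of its exon bases on the other strand. CDC25C, a phosphatase that activates CDK1, was called lower in HCT116 (-0.61), where the call was lost without wild-type library 1 (-0.58). FAM53C overlaps 8.8% of the CDC25C exon bases on the other strand. In U-87 MG these 3 genes fell by less than 1.5-fold (CCNA2 -0.49, CCNB1 -0.45, CDC25C -0.43).

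CCNB2, cyclin B2, fell in both lines (-0.52 in HCT116, -0.30 in U-87 MG). CDK1 fell in HCT116 (-0.48). In U-87 MG its KO libraries held 144, 130.2 and 129 CPM and its wild-type libraries 168, 153 and 139 CPM. These groups overlapped, and the log2 fold change of -0.19 ± 0.06 (edgeR adjusted p = 0.0221) did not pass without KO library 2 (-0.17), without KO library 3 (-0.16), without wild-type library 1 (-0.12) or with limma on FPKM (-0.16). CDC25B, the phosphatase thought to start CDK1 activation at the centrosome, fell in HCT116 by the second smallest amount of the 43 (-0.16) and did not pass in U-87 MG (-0.08 ± 0.05, edgeR adjusted p = 0.169), where its libraries held 72.9, 71.4 and 72.1 CPM in KO and 74.4, 77.1 and 77.0 CPM in wild type.

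FOXM1, MKI67 and TOP2A mark proliferating cells, and all 3 fell in both lines (medians -0.44 and -0.39). FOXM1, the transcription factor that activates many genes of this set in G2, held 129.7, 131 and 129 CPM in the HCT116 KO libraries and 210.1, 206 and 204 CPM in wild type. The spread within each group was small beside the gap between them (-0.67 ± 0.04, edgeR adjusted p = 4.86e-11), with ITFG2 overlapping 15.9% of its exon bases on the other strand. In U-87 MG FOXM1 fell by 0.38 on the log2 scale and was not called. MKI67, which encodes the Ki-67 coat protein of mitotic chromosomes, fell by 0.44 in HCT116 and by 0.39 in U-87 MG. TOP2A, the topoisomerase that untangles chromosomes, fell by 0.32 and by 0.40.

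The mitotic kinases and the chromosomal passenger complex fell as a whole, with 7 of 7 lower in both lines (medians -0.63 in HCT116 and -0.51 in U-87 MG) and 4 called in HCT116 against 1 in U-87 MG. AURKA, Aurora A, the centrosome kinase, stood at 78.5, 81.0 and 76.3 CPM in HCT116 KO and at 147, 143 and 143 CPM in wild type. PLK1, Polo-like kinase 1, stood at 142, 158 and 162 CPM in KO and at 284, 289 and 311 CPM in wild type. Neither gene's groups overlapped, and the log2 fold changes were -0.88 ± 0.05 for AURKA (edgeR adjusted p = 4.67e-12) and -0.93 ± 0.05 for PLK1 (edgeR adjusted p = 6.11e-12). RNA of other loci may be in these values, since 5.24% of the 50-base stretches of AURKA occur elsewhere and an antisense gene covers 12.8% of the exon bases of PLK1. NEK2, a centrosome-separation kinase (-0.63, with 7.27% of its 50-base stretches shared, mostly with NEK2P1), and CDCA8, the borealin subunit of the passenger complex (-0.69), were the other calls in HCT116.

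In U-87 MG the called kinase was AURKB, Aurora B, the enzyme of the chromosomal passenger complex. Its libraries held 29.4, 31.6 and 34.5 CPM in KO and 50.7, 49.9 and 50.8 CPM in wild type. The groups were apart, at a log2 fold change of -0.67 ± 0.06 (edgeR adjusted p = 9.69e-09). AURKB fell by 0.50 on the log2 scale in HCT116. Its scaffold INCENP (-0.48 in HCT116, -0.51 in U-87 MG) and survivin, BIRC5 (-0.54, -0.43), fell in both lines without a call. In U-87 MG, AURKA (-0.49), PLK1 (-0.56), NEK2 (-0.43) and CDCA8 (-0.57) fell by under 1.5-fold. CDCA8 was called there without KO library 2 (-0.60), KO library 3 (-0.59), wild-type library 1 (-0.59) or wild-type library 2 (-0.59), and PLK1 without KO library 3 (-0.59) or wild-type library 1 (-0.59).

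The 5 spindle assembly checkpoint genes fell in both lines, with 2 called in each (medians -0.55 and -0.23). BUB1, the checkpoint kinase of the kinetochore, held 129, 132 and 116 CPM in HCT116 KO and 212, 216 and 199 CPM in wild type. These groups were well apart (-0.73 ± 0.05, edgeR adjusted p = 3.51e-10), whereas in U-87 MG BUB1 fell by 0.18 on the log2 scale. BUB1B, the BubR1 subunit of the mitotic checkpoint complex, was called in both lines. It held 145, 148 and 134 CPM in HCT116 KO and 222, 215 and 217 CPM in wild type (-0.61 ± 0.04, edgeR adjusted p = 6.38e-10). Its U-87 MG libraries held 74.3, 71.9 and 73.1 CPM in KO and 116, 111 and 122 CPM in wild type (-0.67 ± 0.05, edgeR adjusted p = 6.46e-11). KO and wild type were apart in both lines, but the HCT116 call was lost without KO library 3 (-0.58), and 10.2% of its exon bases lie within another gene on the same strand.

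TTK, the MPS1 kinase at the top of the checkpoint, was called in U-87 MG, where it held 28.1, 25.1 and 23.9 CPM in KO and 42.9, 38.9 and 41.2 CPM in wild type. All KO libraries were lower (-0.67 ± 0.07, edgeR adjusted p = 4.24e-08). In HCT116 TTK fell by 0.54 and was called without KO library 1 (-0.59). MAD2L1, the MAD2 protein that binds CDC20, fell by 0.55 in HCT116, where it was called without KO library 2 (-0.61), and by 0.23 in U-87 MG. BUB3, the partner of BUB1 and BubR1, had the smallest change of the 43 in HCT116 (-0.13), which did not pass without wild-type library 2 (-0.12), and -0.22 in U-87 MG. In U-87 MG, MAD2L1 libraries overlapped between groups, at 75.6, 66.9 and 64.7 CPM in KO and 84.6, 85.3 and 72.6 CPM in wild type, and the fall did not pass without KO library 3 (-0.18) or with limma on FPKM (-0.19 and -0.20 with pseudocounts of 1 and 0.1).

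Of the genes of anaphase onset, CDC20, the APC/C activator that the checkpoint holds in check, was called in both lines. It held 210.5, 210.4 and 221 CPM in HCT116 KO and 397, 415 and 445 CPM in wild type, a KO level of 51.0% of wild type (-0.97 ± 0.04, edgeR adjusted p = 5.83e-13). The U-87 MG libraries held 158, 174 and 169 CPM in KO and 287, 288 and 279.9 CPM in wild type, a KO level of 58.5% (-0.77 ± 0.04, edgeR adjusted p = 7.36e-13). The groups were far apart in both lines, although 7.78% of its 50-base stretches are shared with other loci, mostly the pseudogene CDC20P1. PTTG1, securin, the inhibitor of separase that the APC/C destroys, held 86.7, 92.9 and 92.6 CPM in HCT116 KO and 150.1, 150.5 and 144 CPM in wild type. Its groups did not overlap (-0.71 ± 0.05, edgeR adjusted p = 1.40e-10), and it fell by 0.34 in U-87 MG. UBE2C, the E2 enzyme of the APC/C, fell by 0.43 in HCT116 and by 0.37 in U-87 MG with no call.

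The centromere and kinetochore group held the gene with the lowest log2 fold change in HCT116. CENPE, the kinesin that moves chromosomes to the metaphase plate, stood at 34.7, 34.1 and 27.4 CPM in KO and at 82.9, 80.8 and 70.5 CPM in wild type. The KO level was 41.1% of wild type (-1.29 ± 0.08, edgeR adjusted p = 5.43e-11). The U-87 MG values were 46.6, 44.8 and 43.7 CPM in KO and 76.0, 74.1 and 92.4 CPM in wild type (-0.84 ± 0.07, edgeR adjusted p = 4.70e-08). KO was below wild type in every library of both lines. CENPA, the histone H3 variant that marks centromeres, held 15.6, 15.7 and 17.7 CPM in HCT116 KO and 27.0, 28.8 and 27.8 CPM in wild type. Its groups were apart there (-0.77 ± 0.08, edgeR adjusted p = 5.10e-08), with 7.08% of its exon bases within another gene on the same strand. In U-87 MG CENPA fell by 0.28, which did not pass without KO library 2 (-0.19).

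Of the 5 genes of this group 3 were called in U-87 MG and 2 in HCT116 (medians -0.70 and -0.53). CENPF, a large protein of the kinetochore corona, held 167, 158 and 159 CPM in U-87 MG KO and 264, 264 and 271 CPM in wild type. NUF2, a microtubule-binding subunit of the NDC80 complex, held 26.1, 24.8 and 22.5 CPM in KO and 38.6, 39.7 and 41.0 CPM in wild type. All KO libraries were lower for each, with log2 fold changes of -0.72 ± 0.04 for CENPF (edgeR adjusted p = 1.09e-12) and -0.70 ± 0.07 for NUF2 (edgeR adjusted p = 1.26e-08). In HCT116, CENPF (-0.50) and NUF2 (-0.53) fell without a call, and NUF2 was called without KO library 1 (-0.59). NDC80, the namesake of that complex, fell by 0.34 in HCT116 and by 0.53 in U-87 MG.

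Spindle motors and microtubule-binding proteins, the largest group, had the most calls, 5 of 8 in each line (medians -0.61 in HCT116 and -0.64 in U-87 MG). The lowest median of a group was that of anaphase onset in HCT116 (-0.71, 2 of 3 called). In U-87 MG it was that of the centromere and kinetochore group (-0.70, 3 of 5 called). DLGAP5, also called HURP, which stabilises kinetochore fibres, had the lowest log2 fold change of the 43 in U-87 MG. There it held 83.2, 73.7 and 74.2 CPM in KO and 151, 153 and 159.7 CPM in wild type, a KO level of 49.8% (-1.002 ± 0.05, edgeR adjusted p = 1.44e-13). In HCT116 it held 88.8, 91.9 and 80.3 CPM in KO and 154, 152 and 146 CPM in wild type (-0.80 ± 0.05, edgeR adjusted p = 1.17e-10). The groups were apart in both lines. DLGAP5 is the only member on chromosome 14, where in U-87 MG the median log2 fold change of 432 tested genes was -0.47 and 35.2% were called lower, while in HCT116 that median was 0.01 and 4.45% were called lower. The part of this in the DLGAP5 value of U-87 MG was not tested.

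TPX2, the activator of Aurora A on spindle microtubules, held 328, 335 and 322 CPM in HCT116 KO and 515, 513 and 487 CPM in wild type. The groups were apart (-0.62 ± 0.04, edgeR adjusted p = 4.72e-11). In U-87 MG TPX2 was also called (-0.61), but not without wild-type library 3 (-0.55), nor with limma on FPKM (-0.58). ASPM, a protein of spindle poles, held 135, 128 and 129 CPM in U-87 MG KO and 214, 211 and 242 CPM in wild type. KO was lower in every library (-0.76 ± 0.05, edgeR adjusted p = 2.22e-11), and ASPM was called in HCT116 as well (-0.63), though not with limma on FPKM and a pseudocount of 1 (-0.58). HMMR, a hyaluronan receptor that also binds spindle microtubules, was called in both lines (-0.71 in HCT116, -0.82 in U-87 MG).

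KIF2C, the microtubule-depolymerising kinesin MCAK, was called in HCT116 (-0.59), not without KO library 3 (-0.58) or wild-type library 3 (-0.58), and fell by 0.43 in U-87 MG. KIF18A, which limits chromosome oscillation, was called in U-87 MG (-0.68). It fell by 0.54 in HCT116, where it was called without KO library 1 (-0.60), KO library 2 (-0.62) or wild-type library 3 (-0.60). KIF11, the bipolar-spindle motor Eg5 (-0.53 in HCT116, -0.32 in U-87 MG), and NUSAP1, a microtubule bundler (-0.45, -0.28), fell in both lines without a call. The NUSAP1 value carries a limit, since 86.8% of its exon bases lie within another annotated gene on the same strand. On the other strand OIP5 overlaps 9.76% of them.

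The 6 genes of the central spindle and cytokinesis all fell in HCT116, where 3 were called, and 5 fell in U-87 MG, where 1 was called (medians -0.55 and -0.38). KIF20A, the kinesin MKLP2 that carries the passenger complex to the central spindle, held 125, 124 and 124 CPM in HCT116 KO and 187, 188 and 185 CPM in wild type. In U-87 MG it held 165, 175 and 176 CPM in KO and 171, 168 and 174 CPM in wild type. It was thus lower in every KO library of HCT116 (-0.59 ± 0.04, edgeR adjusted p = 3.60e-10) while in U-87 MG the wild-type values lay within the range of the KO values (0.01 ± 0.04, edgeR adjusted p = 0.885). The HCT116 call was lost without wild-type library 2 (-0.58), and BRD8 overlaps 5.35% of the KIF20A exon bases on the other strand. KIF23, the motor of the centralspindlin complex, held 132, 120.3 and 119 CPM in HCT116 KO and 189, 195 and 184 CPM in wild type (-0.62 ± 0.05, edgeR adjusted p = 1.50e-09). Its groups did not overlap.

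ANLN, anillin, the scaffold of the contractile ring, was the call of this group in U-87 MG. It held 231, 216 and 216 CPM in KO and 364, 365 and 376 CPM in wild type, with no overlap (-0.74 ± 0.04, edgeR adjusted p = 6.75e-13), and fell by 0.47 in HCT116. KIF14, a kinesin of the midbody, was called in HCT116 (-0.65) and fell by 0.54 in U-87 MG. PRC1, the microtubule crosslinker of the central spindle (-0.49 in HCT116, -0.26 in U-87 MG), and ECT2, the exchange factor that activates RhoA at the equator (-0.52, -0.38), fell in both lines with no call. For PRC1, PRC1-AS1 overlaps 34.3% of the exon bases on the other strand and 57.6% lie within another gene on the same strand.

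The change was larger in HCT116 for 29 genes and in U-87 MG for 14. Across the 43 genes the log2 fold changes of the lines had a Pearson r of 0.44 and a Spearman rho of 0.36, given as a description, against 0.18 and 0.29 over the 12239 genes tested in both. The difference itself was tested as the interaction in 1 edgeR fit of all 12 libraries. It passed at the adjusted p for 21 of the 43 (41.9% of the 15613 genes tested passed). In 18 the fall was larger in HCT116 (20.5% of all genes had a lower change in HCT116) and in 3 it was larger in U-87 MG (21.4% of all genes had a higher change in HCT116).

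Only KIF20A also exceeded the 1.5-fold threshold on that difference (7.24% of all genes tested were called with a lower change in HCT116), and 0 of the 43 were called with a higher change there by edgeR or by DESeq2 (9.66% of all genes by edgeR). The difference of the KIF20A log2 fold changes, HCT116 minus U-87 MG, was -0.59 ± 0.06 (edgeR adjusted p = 9.70e-10). Over 19 alternatives it ran from -0.67 to -0.57 with an edgeR, DESeq2 or limma adjusted p from 3.73e-24 to 8.76e-07. It stayed past 1.5-fold in 14 of them and not with relative-log-expression size factors (-0.58), with DESeq2 (-0.58), or without HCT116 KO library 2 (-0.58), HCT116 wild-type library 2 (-0.58) or U-87 MG KO library 2 (-0.57). The next largest differences were those of BUB1 (-0.54), CENPA (-0.47), CENPE (-0.44), CCNB1 (-0.39), AURKA (-0.37), PLK1 (-0.37) and PTTG1 (-0.36).

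Smaller differences in the same direction were those of MAD2L1 (-0.32), FOXM1 (-0.28), CDK1 (-0.28), CCNA2 (-0.24), KIF23 (-0.23), CCNB2 (-0.22), PRC1 (-0.22), KIF11 (-0.20), CDC20 (-0.19) and KIF2C (-0.16). ANLN (0.28), CENPF (0.23) and DLGAP5 (0.21) differed the other way, with the larger fall in U-87 MG. Some of these lost the adjusted p when a library was left out. CDK1 did not pass without HCT116 KO library 3 (-0.23). CDC20 did not pass without HCT116 KO library 1 (-0.17), HCT116 KO library 2 (-0.17), HCT116 wild-type library 3 (-0.14) or U-87 MG KO library 2 (-0.16). DLGAP5 did not pass without HCT116 KO library 2 (0.17), U-87 MG KO library 2 (0.18) or 3 (0.17), or U-87 MG wild-type library 2 (0.20) or 3 (0.17). For KIF11 and KIF2C the p was lost without any of 6 and 8 libraries, in that order, at differences of -0.20 to -0.16 and -0.17 to -0.14. With limma on FPKM, neither CENPF (0.13 and 0.15 with pseudocounts of 1 and 0.1) nor DLGAP5 (0.15 and 0.16) passed.

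**Figure D3:**
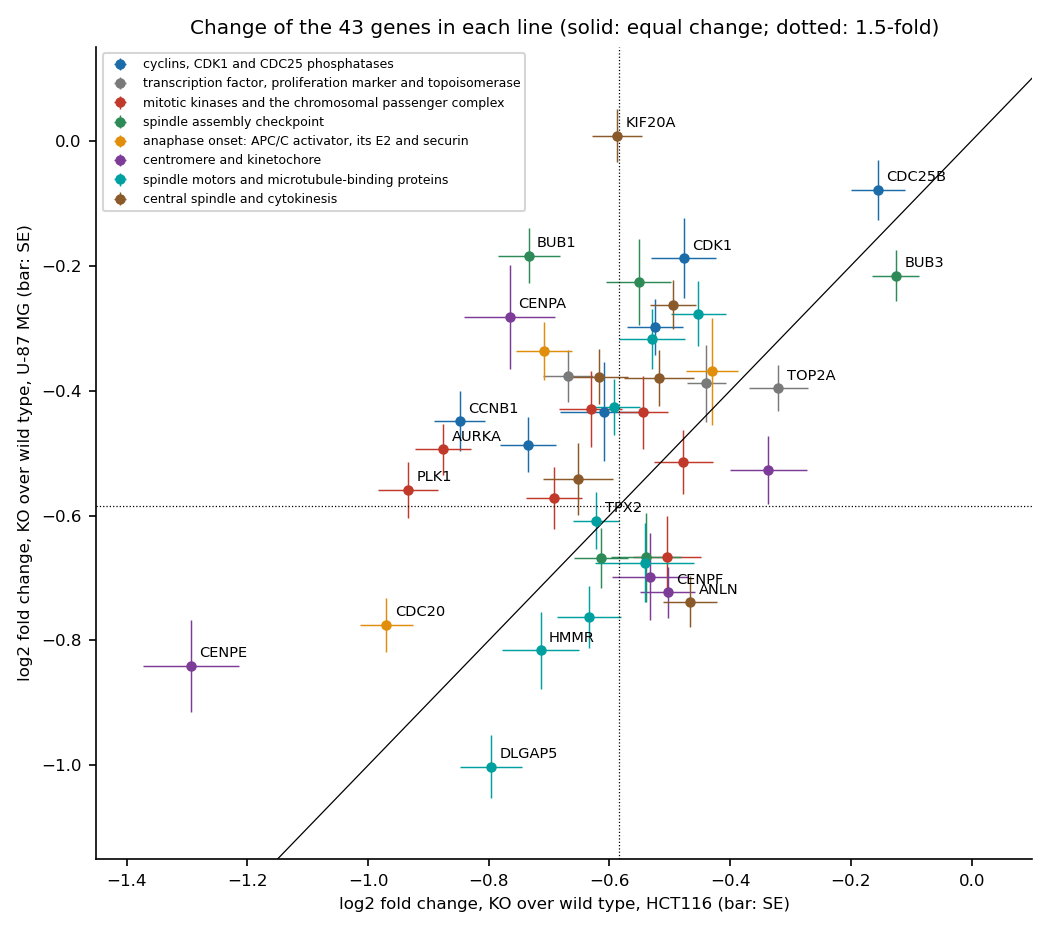
Each point is 1 of the 43 genes, coloured by role, with its log2 fold change (KO over wild type) in HCT116 on the x axis and in U-87 MG on the y axis; bars are standard errors, the solid line marks equal change and dotted lines the 1.5-fold threshold. Of the genes 29 lie above the solid line, with a larger fall in HCT116, and KIF20A sits at -0.59 on the x axis and 0.01 on the y axis.

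In wild-type cells the 43 genes spanned a wide range of levels per length. The median FPKM was 49.8 in HCT116, from 7.62 ± 0.68 (SD, n = 3) for CENPE to 227 ± 12.5 for CDC20, and 42.1 in U-87 MG, from 7.10 ± 0.154 for KIF14 to 271 ± 14.2 for PTTG1. CDC20, PTTG1 and UBE2C, all genes of anaphase onset, were the 3 highest in HCT116, at 227 ± 12.5, 201 ± 5.29 and 179 ± 3.37 FPKM. In U-87 MG the same 3 were highest in another order, with PTTG1 at 271 ± 14.2, UBE2C at 213 ± 30.4 and CDC20 at 162 ± 2.75 FPKM. When the genes were put in order of level, the libraries of 23 of 42 neighbouring pairs overlapped in HCT116 and those of 27 of 42 in U-87 MG, so the order of most neighbours is not resolved.

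**Figure D4:**
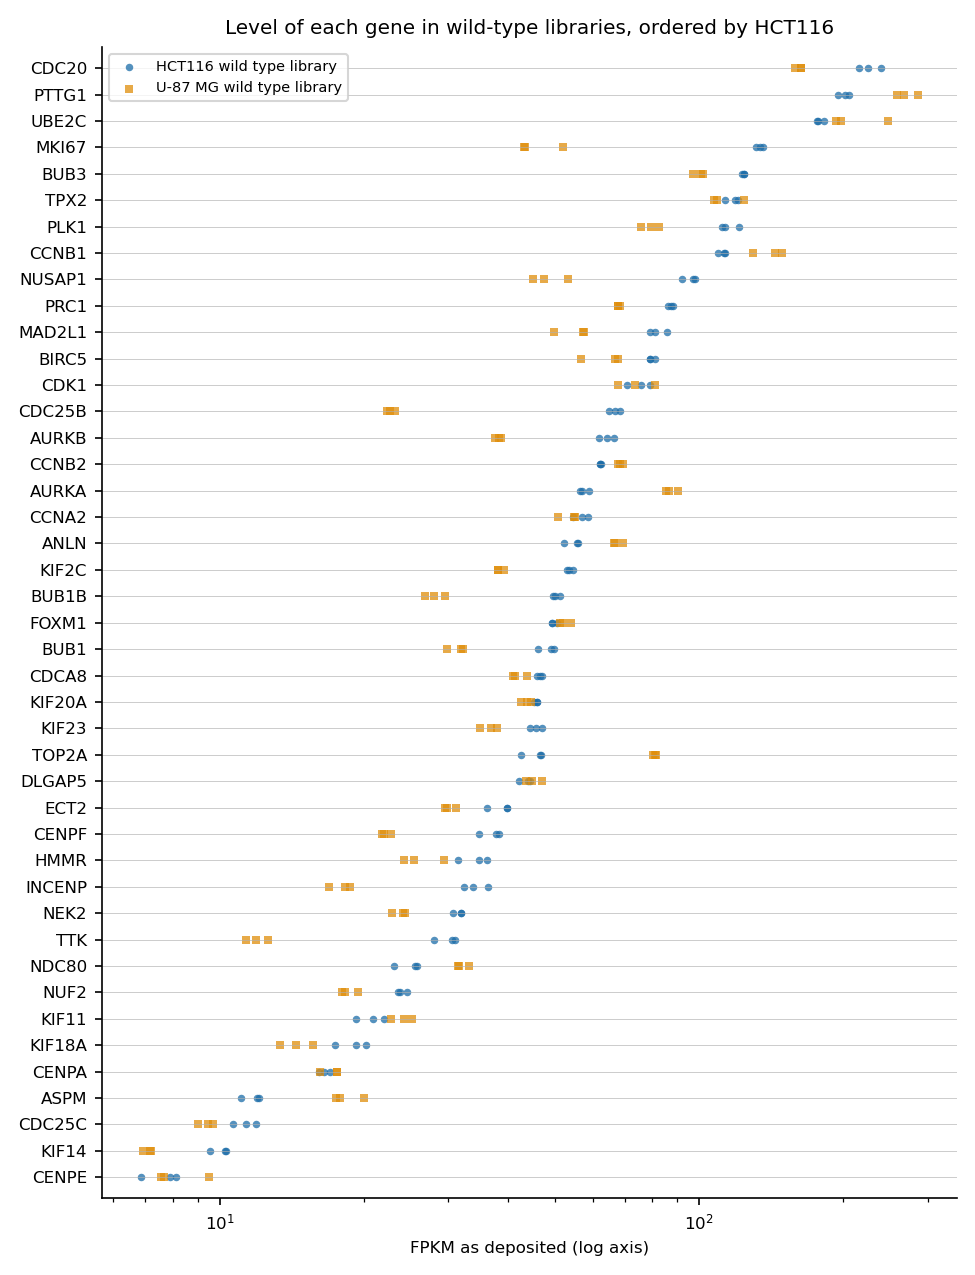
The x axis is the deposited FPKM of each wild-type library on a log axis, circles for HCT116 and squares for U-87 MG, with genes ordered by their HCT116 mean. CDC20, PTTG1 and UBE2C are at the top in HCT116 and CENPE is at the bottom, and the lines differ most for CDC25B and MKI67.

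Between wild-type lines, 8 of the 43 were called higher in HCT116 (26.9% of all genes tested) and 3 were called lower (28.3% of all genes). Higher in HCT116 on the log2 scale were CDC25B (1.54), MKI67 (1.39), TTK (1.19), NUSAP1 (0.86), AURKB (0.77), BUB1B (0.73), INCENP (0.71) and CENPF (0.61). TOP2A (-0.97), ASPM (-0.78) and AURKA (-0.72) were lower in HCT116. Cell line and read layout, single against paired, cannot be told apart in this comparison.

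Related genes were counted in lists that hold none of the 43. The lists were written from textbook knowledge, but with earlier results of these data known, so they are not independent of the data. Their counts stand beside the shares of all genes tested, of which 28.1% fell and 4.07% were called lower in HCT116, and 30.2% and 8.15% in U-87 MG. Of 22 other motors, spindle and cytokinesis genes all 22 fell in HCT116 and 18 in U-87 MG, with 7 and 4 called lower (medians -0.49 and -0.43). In HCT116 CEP55, an abscission protein (-0.89), FAM83D, a spindle adaptor of casein kinase (-0.95), and ARHGAP11A, a RhoA regulator (-0.80), were called, and so was KIF20B (-1.10), a kinesin related to KIF20A that is named because its value was seen to be low. In U-87 MG PSRC1 (-0.97), ARHGAP11A (-0.72) and KIF15 (-0.62) were called.

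Of 27 other kinetochore and checkpoint genes 22 fell in each line, and 9 were called in HCT116 and 5 in U-87 MG (medians -0.46 and -0.38). SPAG5 (-0.71), ZWINT (-0.65) and CENPN (-0.63) were called in HCT116, and CENPM (-1.49), KNL1 (-0.90) and KNSTRN (-0.76) in U-87 MG. CENPM (-0.71) and KNSTRN (-0.71) were called in HCT116 too. Of 16 condensin and cohesin genes, including the shugoshins, 14 fell in each line and 3 were called in each (medians -0.44 and -0.44). These were SMC4 (-0.64), SGO2 (-0.82) and SGO1 (-0.60) in HCT116 and NCAPH2 (-1.37), NCAPH (-0.68) and SMC2 (-0.59) in U-87 MG.

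Among the other regulators of mitotic entry more genes fell than rose. Of 17, 9 fell and 1 rose in HCT116 (29.2% of all genes rose). In U-87 MG 10 fell and 3 rose (29% of all genes rose). The medians were -0.24 and -0.25, with 5 and 3 called lower. CCNF (-0.71), CKS2 (-0.69) and CDCA3 (-0.81) were called in HCT116, and GTSE1 (-1.30), BORA (-1.34), an activator of Aurora A, and PKMYT1 (-0.73) in U-87 MG. BORA was called in HCT116 too (-0.71). Of 17 APC/C subunits and regulators 10 fell in HCT116 with 1 called, the E2 enzyme UBE2S (-0.67). In U-87 MG 5 of the 17 fell, a share near the 30.2% of all genes, and 2 rose with 0 called (medians -0.25 and -0.03). DESeq2 also called 0 of the APC/C genes in U-87 MG, where the counts at an unadjusted p under 0.05 were 5 lower and 2 higher.

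Several of the genes named in U-87 MG lie on 2 chromosomes that were low as a whole there. On chromosome 22 the median log2 fold change of 309 tested genes was -0.97 and 70.9% were called lower, and on chromosome 13 the median of 237 was -0.20 and 27.8% were called lower. CENPM, NCAPH2 and GTSE1 are on chromosome 22, and BORA and TFDP1 on chromosome 13. SKA3, another kinetochore gene, is on chromosome 13 too and was called lower in both lines (-0.70 in HCT116, -0.62 in U-87 MG). CENPM and BORA were also called lower in HCT116, while NCAPH2, GTSE1 and TFDP1 were not. The part of the low chromosomes in the U-87 MG values of these genes was not tested. None of the 43 genes lies on chromosome 13 or 22, and the chromosomes of the members other than DLGAP5 had medians between -0.06 and 0.11 in U-87 MG.

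The subunits of the DREAM and B-MYB-MuvB complexes, which repress or activate this program, did not move as a block. Of 13, 6 fell and 2 rose in HCT116, and 6 fell and 3 rose in U-87 MG (medians -0.18 and -0.16). MYBL2, B-MYB itself, went from 230.4 ± 2.13 to 128 ± 1.22 CPM (SD, n = 3) in HCT116, without overlap (-0.84 ± 0.04, edgeR adjusted p = 1.23e-12), and had a log2 fold change of -0.05 in U-87 MG. TFDP2, a dimer partner of E2F proteins, was called higher in both lines (0.89 and 0.80). TFDP1 (-1.18) and LIN9 (-0.62) were called lower in U-87 MG and E2F5 (-1.46) in HCT116. Of 11 tested G1 cyclins, CDKs, E2F genes and RB1, 8 fell and 2 rose in HCT116 and 5 fell in U-87 MG, with 0 called in either line by edgeR (medians -0.21 and -0.03). At an unadjusted p under 0.05 the counts were 8 lower and 2 higher in HCT116 and 5 lower in U-87 MG, and DESeq2 called CCNE2 lower in HCT116, a gene named because it was that call.

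Of 12 CDK inhibitors and genes of G2 arrest tested in HCT116, 8 rose (29.2% of all genes did) and 2 fell, with 4 called higher (7.82% of all genes). Of 8 tested in U-87 MG, 4 rose (29% of all genes did), with 2 called higher (8.06% of all genes). Among those that rose there, RPRM was near the floor, at a mean of 0.746 CPM in KO and 0.0883 CPM in wild type. CDKN2A, CDKN2B and CDKN2C were at 0 in every U-87 MG library and not tested there, so the sets of the lines differ. The medians were 0.39 and 0.27. The genes that fell in HCT116 were SFN, a 14-3-3 protein of G2 arrest (-0.29), and CDKN2C, an inhibitor of CDK4 and CDK6 (-0.27), both named after their values were seen. CDKN1A, which encodes p21, an inhibitor of CDKs, held 633, 655 and 701 CPM in HCT116 KO and 308, 309.8 and 318 CPM in wild type. In U-87 MG it held 319.8, 328 and 338 CPM in KO and 158, 162 and 163 CPM in wild type. KO was above wild type in all libraries, with log2 fold changes of 1.09 ± 0.04 (edgeR adjusted p = 2.35e-14) and 1.03 ± 0.04 (edgeR adjusted p = 1.85e-15). BTG2, an antiproliferative gene, was called higher in both lines (0.99 and 0.89), and GADD45A, a stress gene that inhibits CDK1, in HCT116 (0.95).

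**Figure D5:**
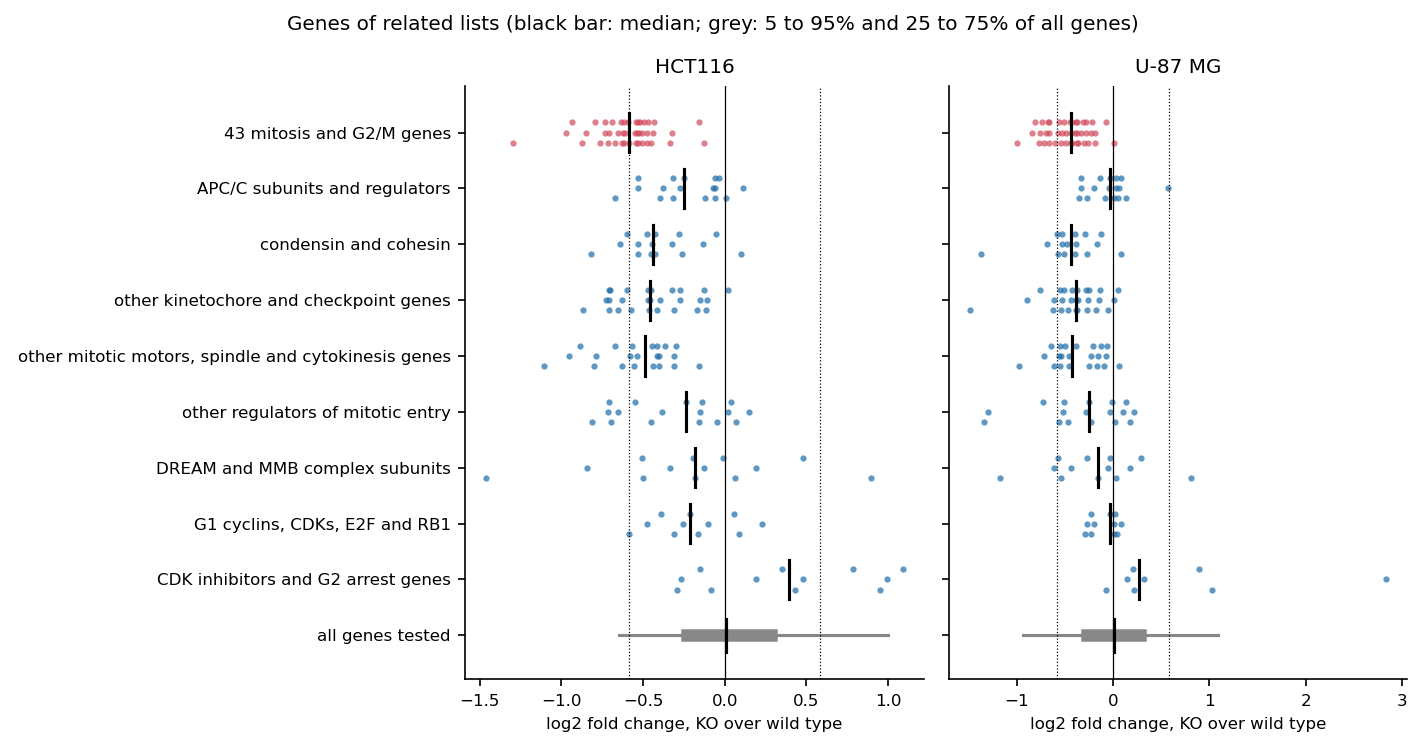
Points are genes and black bars medians of log2 fold change (KO over wild type) for the 43 genes and for 8 related lists, in HCT116 and in U-87 MG, whose x axes differ in range; the grey bars span 25 to 75% and 5 to 95% of all genes tested, and dotted lines mark 1.5-fold. The medians of the 43 genes are -0.59 and -0.43, and the list of CDK inhibitors is the only one with medians above 0 in both lines, at 0.39 and 0.27.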

How the data were processed

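RNA-seq of 12 libraries was analysed, 3 per group of GSTO1 KO and wild-type HCT116 and U-87 MG cells. Per the submitters' processing notes, alignment was to GRCh38 by STAR 2.5.2. The authors' deposited counts are whole numbers for each gene symbol, from featureCounts 1.6.1, and their deposited FPKM values are from Cufflinks 2.2.1 with refGene, per the series' design text. The library kit marks strand, but the sources used here do not give the strand setting of the counting or its treatment of multiply aligned reads, so reads of antisense genes and of copies may be included. A row of the FPKM values that names no gene was left out.

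The main test was edgeR 4.0.16 (R 4.3.3; TMM factors, filterByExpr, robust glmQLFit, glmQLFTest, Benjamini-Hochberg over all genes tested) on the counts of the 6 libraries of a line, and on all 12 for the difference between lines and for wild type against wild type. A call needed an adjusted p under 0.05, a mean FPKM over 0.5 and more than 1.5-fold change, which are the thresholds of the design text, applied here to every gene and not just to protein-coding ones. The standard error is the size of the log2 fold change divided by the square root of F. The edgeR code was tested on simulated data. Alternatives were relative-log-expression size factors, no filter on low counts, DESeq2 1.42.0, limma 3.58.1 on log2(FPKM + 1) and log2(FPKM + 0.1), a replicate block, 1 fit of 12 libraries, each library left out in turn and, chosen after seeing the data, all libraries numbered 3 left out.

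The members, roles and lists were chosen with earlier results of these data known. Full values are given, per role and line, for the up to 2 called members with the smallest adjusted p and for members whose change differs between lines. From the related lists up to 3 called genes per line are named, and CDKN1A always.

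Library numbers come from the labels. In HCT116 the deviations of KO and wild-type libraries of the same number from their group means correlated at 0.145, 0.124 and 0.370. However, KO library 1 correlated with wild-type library 2 at 0.157, and KO library 2 with wild-type library 1 at 0.109. Numbers 1 and 2 were thus not told apart as pairs, and only number 3 correlated positively with its own number alone. The main test used no pairing, and a replicate block was an alternative. Positions and exon overlaps came from GENCODE release 44 on GRCh38, chromosomes from RefSeq (93.8% of genes tested matched in HCT116 and 93.5% in U-87 MG), and promoter windows from RefSeq on GRCh38.p14.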

Additional observations from a re-analysis of the deposited data

Results flagged for a closer look

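KIF20A differed between the lines by the test of the difference itself, with a log2 change in HCT116 minus that in U-87 MG of -0.59. It fell in HCT116, from 187 to 124 CPM on average, and stood at 172 CPM in KO and 171 CPM in wild type in U-87 MG.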

How the results depend on the processing

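With a replicate block, the members called lower numbered 22 in HCT116 and 13 in U-87 MG, as without it, and none of 118 single-gene values of members changed its call. In U-87 MG, library numbers did not pair the samples (correlations of 0.0430, 0.00957 and -0.00237). The median log2 fold change of the members in HCT116 was -0.64 with log2(FPKM + 0.1). In U-87 MG it was -0.44 with no filter, -0.40 with log2(FPKM + 1), -0.45 without the libraries numbered 3 and -0.48 to -0.43 with single libraries left out. Members called for a lower change in HCT116 than in U-87 MG numbered 0 with relative-log-expression size factors, 0 with DESeq2, 2 and 3 with log2(FPKM + 1) and log2(FPKM + 0.1), and 0 to 1 with single libraries left out. Members with a higher change in HCT116 at the adjusted p numbered 1 and 1 with the FPKM settings, 6 without the libraries numbered 3 and 2 to 6 with single libraries left out. The log2 fold change of KIF20A in U-87 MG turned negative with no filter (-0.0013) and without the libraries numbered 3 (-0.0016), and with single libraries left out it ran from -0.011 to 0.037, negative without KO library 2 (-0.0045), KO library 3 (-0.011) or wild-type library 2 (-0.0087). Over all genes, 555 were called higher in HCT116 with log2(FPKM + 1) against 1100, and called genes that were higher made up 53.0% against 65.8%. In each of these the cause was not tested. With only the bases before the start, the CHR core was in 47.8% of member windows and 13.3% of all windows. Of all single-gene values under an alternative, 24 gained and 17 lost a call, 5 changed sign (those of KIF20A above) and 1766 kept direction and call, 39 of which changed the side of the adjusted p of 0.05. The lowest count of the 43 genes in any library was 279, and the effect of depth was not tested.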
